A study of Mus musculus with 4 samples.

Results

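Diestrus mature luminal (ML) cells with transcripts of Tnfsf11 or Calca were taken from a droplet single-cell RNA-sequencing library of mouse mammary epithelium. ML cells were those with counts of at least 3 of 6 ML genes (Stc2, Upk3a, Plac8, Tspan1, Prlr, Cited1), of at most 1 of 5 luminal progenitor (LP) genes (Cd14, Lalba, Plb1, Atp6v1b1, Aldh1a3) and of at most 2 of 7 basal genes (Krt5, Krt17, Acta2, Myl9, Tagln, Mylk, Cnn1). Among the 630 ML cells of the diestrus library, 192 had at least 1 count of Tnfsf11 or Calca, and these are called members. The members were chosen by their measured counts of these 2 genes, so that their Tnfsf11 and Calca values are given as a description only. The diestrus library held 2439 cells, and all libraries together held 10555 cells.

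All cells were total epithelium (Lin-CD24+) sorted from FVB/NJ mice, for which the labels name no transgene and no treatment. The diestrus and estrus libraries came from adult glands at 10 weeks, each from 2 mice according to the methods, and the puberty library from glands of 6 mice at 5 weeks. Each stage had 1 library, and the mice within a library cannot be told apart. No value below therefore has a replicate check and no p-value was computed. All intervals are exact 95% intervals that cover counting error only, not the variation between mice or libraries. Intervals of folds treat each count as independent and so also leave out the variation between cells. They are too narrow for genes whose counts lie in few cells.

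Tnfsf11 encodes RANKL, a membrane-bound cytokine of the tumour necrosis factor family that is released by proteases and binds the receptor RANK. In the mammary gland RANKL is known as a paracrine signal from progesterone-responsive ML cells to neighbouring cells that carry RANK, and diestrus is the phase of the mouse cycle in which progesterone is high. Calca encodes the hormone calcitonin and, through an alternative choice of exons, the neuropeptide alpha-CGRP, and it is a known progesterone-induced gene of the uterine epithelium.

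Both genes lie on the minus strand in the mouse assembly GRCm38. Tnfsf11 (ENSMUSG00000022015) occupies 78277445 to 78308043 on chromosome 14 and has 1 protein-coding transcript in the GENCODE annotation. Calca (ENSMUSG00000030669) occupies 114631478 to 114636357 on chromosome 7 and has 6 protein-coding transcripts that end at different positions. The deposited gene counts sum these transcripts, so that calcitonin and alpha-CGRP messages cannot be told apart. The 250 bases before the start of each gene are shown because the members are defined by the detection of these 2 transcripts. They come from RefSeq on GRCm38.p6, which had a sequence for both genes, and correspond to chr14:78308044-78308293 and chr7:114636358-114636607, written 5′ to 3′ on the gene's strand. Capitals mark matches to the E-box letters CANNTG and, in Tnfsf11, to the TATA letters TATAA.
Tnfsf11: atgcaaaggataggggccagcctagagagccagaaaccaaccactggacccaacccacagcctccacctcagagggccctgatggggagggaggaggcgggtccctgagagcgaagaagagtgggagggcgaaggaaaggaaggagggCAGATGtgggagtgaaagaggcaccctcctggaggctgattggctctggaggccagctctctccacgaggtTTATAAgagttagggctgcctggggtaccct
Calca: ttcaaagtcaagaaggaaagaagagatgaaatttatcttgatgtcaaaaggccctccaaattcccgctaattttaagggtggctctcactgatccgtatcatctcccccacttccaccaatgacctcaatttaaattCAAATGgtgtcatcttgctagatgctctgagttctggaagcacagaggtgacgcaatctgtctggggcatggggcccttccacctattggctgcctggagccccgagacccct

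Letters were searched on both strands. The E-box letters started 102 bases before the Tnfsf11 start and 113 bases before the Calca start, and 66.2% of 32851 RefSeq promoter windows of this length held them. The TATAA letters began 31 and 30 bases before the Tnfsf11 start, as overlapping matches on opposite strands, were not found in the Calca window, and occurred in 22.8% of all windows. Neither window held the steroid receptor half-site AGAACA (16.1% of all windows), the STAT letters TTCNNNGAA (7.02%) or the cAMP response element TGACGTCA (1.55%). GC content was 60.4% for Tnfsf11 and 48% for Calca.

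To see where the 2 transcripts were detected, their shares were compared across the cell classes and libraries. In diestrus, Tnfsf11 was detected in 118 of 630 ML cells (18.7%, interval 15.8% to 22.0%) and Calca in 139 of 630 (22.1%, interval 18.9% to 25.5%). The median total was 4458 counts per ML cell. LP cells, with a similar median of 4414 counts, had Tnfsf11 in 2 of 283 cells (0.707%) and Calca in 1 (0.353%). Basal cells, with a median of 3435 counts, had Tnfsf11 in 1 of 982 cells (0.102%) and Calca in 6 (0.611%). LP and basal cells were here required to have at most 1 ML gene, so that their shares are not a ceiling for counts from free RNA. The part of free RNA in the ML shares was not tested.

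Few ML cells of the other libraries held either transcript. None of 748 estrus ML cells (median 4207 counts) had a count of either gene, which allows a share of up to 0.401% for each. Tnfsf11 was detected in 29 of 2011 puberty ML cells (1.44%, interval 0.968% to 2.06%), although these were deeper, with a median of 7903 counts. Calca was detected in 0 of the 2011, which allows up to 0.149%. After each cell was thinned to 2000 counts, which left out 333 diestrus, 520 estrus and 0 puberty cells, Tnfsf11 was present in 9.57% of diestrus ML cells (51 of 533), 0.15% of estrus ML cells (1 of 665) and 0.561% of puberty ML cells (10 of 1782). Cells are reclassified after thinning, so that a cell with few ML counts may leave or enter the class. Calca remained in 14.4% of the diestrus ML cells (77 of 533). With 1 library per stage, stage and library cannot be told apart.

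**Figure D1:**
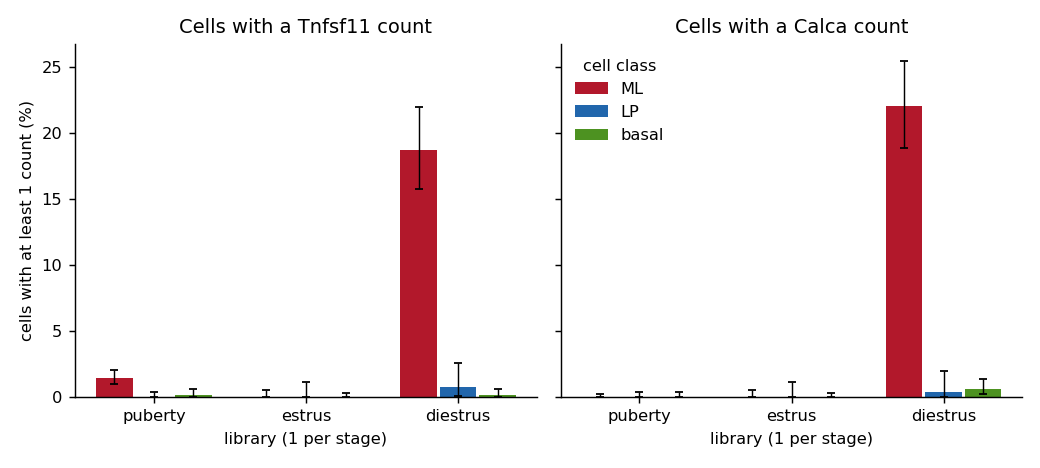
Share of cells (%) with at least 1 count of Tnfsf11 (left) or Calca (right) in ML, LP and basal cells of the 3 libraries, with exact 95% intervals for counting error. Diestrus ML cells reach 18.7% for Tnfsf11 and 22.1% for Calca, while LP and basal cells stay under 1% in every library.

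Of the 246 cells with either gene in the whole diestrus library, 54 lay outside the ML class. The limit on ML genes alone left out 15 of them, the limit on LP genes alone 20, the limit on basal genes alone 7, and several limits together 12. Among cells that met the LP and basal limits, those with 2 ML genes, just outside the rule, held either transcript in 11 of 45 (24.4%), and those with 3 ML genes, just inside it, in 30 of 124 (24.2%). The share was 29.0% in cells with 4 ML genes, 39.2% with 5, 20.8% (10 of 48) with 6, whose median depth of 6548.5 counts was the highest of these sets, and 1.19% (1 of 84) in cells with none. At the other threshold, 27 of the members with Tnfsf11 only and 23 of those with Calca only rested on a single count of that gene.

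The members varied in which gene they held and how much of it. Tnfsf11 alone was present in 53 members, Calca alone in 74 and both in 65 (33.9% of members). Tnfsf11 was scarce, with 271 counts in all, a median of 2 and a maximum of 9 per positive cell, and 48 of 118 positive cells had 1 count. Calca was more abundant per positive cell, with 1135 counts in all, a median of 4 and a maximum of 53. A few cells carried much of the Calca signal, as the 10 highest held 32.1% of its counts, against 23.6% for Tnfsf11. Scaled to 10000 counts per cell, the median was 6.49 for Calca and 2.70 for Tnfsf11 in positive cells. Median Calca counts were 5 in cells with both genes and 4 in cells with Calca only.

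Detection of either gene increased with the depth of the cell. When the 630 ML cells were split into 10 deciles of total counts, 5 of 63 cells (7.94%) held either gene in the shallowest decile (median 1884 counts), 46 of 63 (73.0%) in the ninth (median 7880) and 50.8% in the deepest (median 10787). Cells with 0 of both genes therefore include cells too shallow to show them. The members had a median of 6442.5 counts per cell, against 3925.5 in the 438 ML cells with neither.

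To ask whether the 2 genes were found in the same cells, co-detection was set against the number given by the product of their shares within each depth decile. Both genes were present in 65 ML cells where the product gave 41.7, a ratio of 1.56 (interval 1.20 to 1.99). Without the depth strata the ratio was 2.50 (1.93 to 3.18), and with 20 strata it was 1.55. Calca was detected in 55.1% of the 118 Tnfsf11-positive ML cells and in 14.5% of the 512 negative ones, but the positive cells were deeper (median 6778 against 4127.5 counts). Conversely, Tnfsf11 was detected in 46.8% of Calca-positive and 10.8% of Calca-negative ML cells. The ratio was thus smaller within depth strata than without them. Thinning every cell to 2000 counts, which also evens out depth, gave a ratio of 2.50 again, from 19 cells with both genes.

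**Figure D2:**
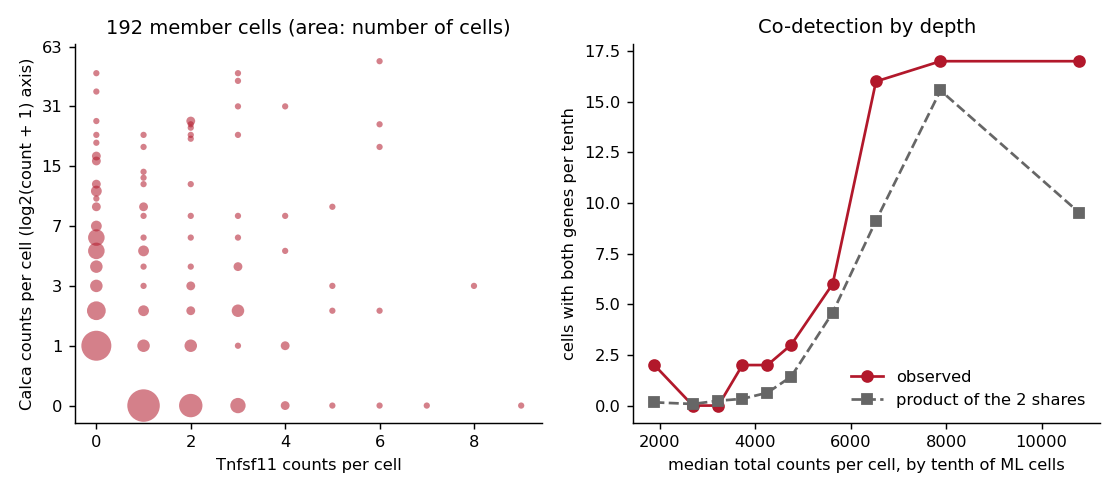
Left, Tnfsf11 counts (linear axis) and Calca counts (log2 axis) of the 192 members, where the area of a point is the number of cells; right, the number of ML cells with both genes in each depth decile, observed (circles) and as the product of the shares of the 2 genes (squares). The observed number is 65 in all against 41.7 from the products, and both lines are higher in the deeper deciles.

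Co-detection with other genes gave a scale for this ratio. Among 6458 genes present in at least 5% of ML cells, Tnfsf11 had the 20th highest ratio with Calca and Calca the 26th highest with Tnfsf11. The genes with the highest ratios to Calca were H19 (an imprinted non-coding RNA; 28 cells against 14.6, ratio 1.91), Hba-a2 (alpha globin; 45 against 24.7, ratio 1.82), 0610030E20Rik (1.76), Pelo (ribosome rescue; 1.69) and Klhl2 (1.69). With Tnfsf11 they were Sparc (a matrix protein; 18 cells against 9.60, ratio 1.87), Porcn (which lipid-modifies Wnt ligands; 27 against 14.7, ratio 1.83), Vav3 (1.80), Orai1 (a calcium channel; 1.76) and Zfp579 (1.75). The interval included 1 for Klhl2 (0.922 to 2.83) and Vav3 (0.928 to 3.14) and lay above 1 for the other 8. These genes were picked for the highest ratios among 6458, which favours intervals above 1, so that the intervals are a description only. Pgr, the progesterone receptor, was found with Calca in 14 cells against 21.1 (ratio 0.66, interval 0.36 to 1.11) and with Tnfsf11 in 18 against 17.8 (ratio 1.01), so that neither ratio could be separated from 1 at this depth.

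The members were also set against the other ML cells by clustering the 630 cells without Tnfsf11, Calca and 10 cell cycle genes. Members made up 134 of 251 cells in cluster 1 (53.4%, interval 47.0% to 59.7%), 39 of 72 in cluster 2 (54.2%) and 14 of 22 in cluster 5 (63.6%). They were rare in cluster 3, with 4 of 236 cells (1.69%, interval 0.464% to 4.28%), and in cluster 4, with 1 of 49 (2.04%). The leading genes of cluster 1 included Agtr1a (angiotensin receptor), Serpinb11, Sult1a1, Hepacam2 and Hba-a1. Those of cluster 2 were mitotic genes such as Pbk, Cenpa and Cdc20, and those of cluster 5 milk and matrix genes such as Trf, Csn1s2a, Spp1 and Col3a1. Col3a1 had 0 counts in members, and its 30 counts in the depth-matched cells described below lay in a single cell. Cluster 3 was led by Ccl5, Pir, Ly6d, Nupr1 and Fgb, and cluster 4 by Fxyd2, 1600014C10Rik and Clca3a2. These leading genes define the clusters and are not findings about them.

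The clusters were then grouped by their member share, and the members of each group were set beside the number given by depth. A lower and a higher share thus follow from the grouping. Median depth was 3590 counts in clusters 3 and 4, and 5881 in clusters 1, 2 and 5. The part of depth in the split was not tested. Clusters 3 and 4 together held 5 members among 285 cells (1.75%, interval 0.572% to 4.05%), where the shares of the depth deciles gave 52.1. Clusters 1, 2 and 5 held 187 among 345 (54.2%, interval 48.8% to 59.5%), where they gave 139.9. Within these 345 cells, 65 held both genes against 50.2 from the product of the shares in depth deciles, a ratio of 1.29 (interval 0.999 to 1.65). The lower bound of this ratio was just under 1. These clusters were singled out by their member share, and clusters 3 and 4 held 0 cells with both genes.

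**Figure D3:**
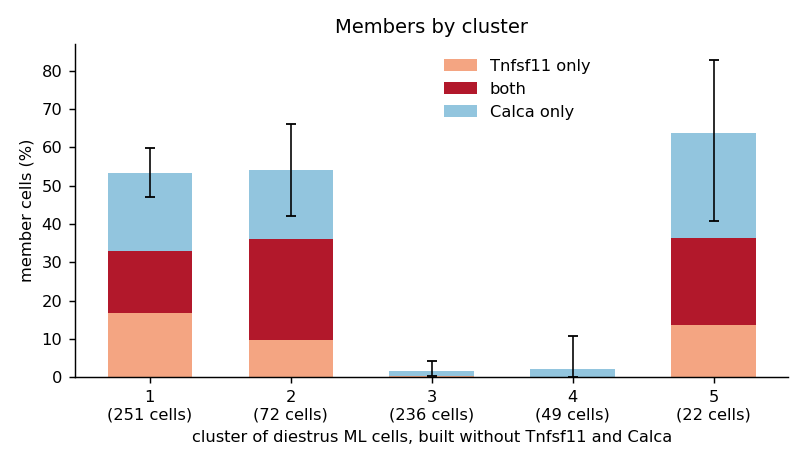
Share of each ML cluster (%) made up of members, stacked by the gene detected, with the exact 95% interval of the total for counting error. Clusters 1, 2 and 5 lie between 53.4% and 63.6% and clusters 3 and 4 at about 2%.

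To describe expression beyond the 2 genes, each member was paired with the ML cell with 0 of both genes that was nearest in total counts. The 192 matched cells had a median of 5618 counts, against 6442.5 in members, since too few deep cells lacked both genes. Pair totals differed by a median of 10.0%. Counts were summed over each set (1301914 in members and 1189479 in matched cells) and scaled to the total of the set (CPM). Of 5013 genes with at least 20 CPM in either set, 19 (0.379%) were higher in members by 1 or more on the log2(CPM + 10) scale and 72 (1.44%) were lower by as much, with a median difference over all genes of 0.01. Folds below are ratios of CPM without the added 10, and the cells of a set are not replicates.

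The genes higher in members included H19, alpha globin, Rgs2 and Slpi. Areg, encoding the estrogen receptor target amphiregulin, stood in 98.4% of members and 75.5% of matched cells, at 2496 and 1770 CPM (1.41-fold, interval 1.33 to 1.49), with a median of 15 and 5 counts per cell. H19 had 88 counts in members and 13 in matched cells (67.6 and 10.9 CPM, 6.18-fold, interval 3.44 to 12.1), and was present in 33 members and 6 matched cells. Hba-a1, an alpha globin gene, was detected in 154 of 192 members (80.2%) and 76 of 192 matched cells (39.6%), at 926 and 328 CPM (2.83-fold, interval 2.52 to 3.18). Rgs2, a regulator of G protein signalling, was present in 68.8% and 40.6% of cells, at 532 and 223 CPM (2.39-fold).

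Other red cell genes were at or near 0 beside Hba-a1. Beta globin Hbb-bs and Hbb-bt, and the red cell gene Slc4a1, had 0 counts in both sets, and Alas2 had 1 count in members and 2 in matched cells (these genes were chosen after the globin values were seen). Hba-a1 was found in 3 of 283 LP cells and 2 of 982 basal cells of the same library. Hba-a2, which had 74 and 22 counts, is a near-identical copy of Hba-a1, so that the split of reads between them is uncertain.

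Slpi, which encodes a secreted protease inhibitor, was at 2102 CPM in members and 932 in matched cells (2.26-fold), and was detected in 66.7% and 40.6% of cells. Wfdc12 and Wfdc18, which like Slpi encode whey acidic protein (WAP) domain proteins, rested on few cells. Wfdc12 had 655 and 175 counts (3.42-fold), and its 10 highest cells held 78.9% of its counts in members. Wfdc18 had 113 and 31 counts (3.33-fold), with 89.4% of those in members from 10 cells. Other genes of the named set were Bex1 (2.84-fold; 38.0% and 15.6% of cells), Caap1 (3.2-fold), Sult5a1, a sulfotransferase (2.48-fold), and Hepacam2, an immunoglobulin-family membrane protein (2.33-fold; 51.6% and 22.4% of cells).

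Of the 12 named genes lower in members, 8 were among the 10 leading genes of cluster 3, where Tnfsf11 and Calca were rarely detected. Ly6d, a membrane-anchored surface protein, had 364 counts in members and 3322 in matched cells (280 and 2793 CPM), which was 9.99-fold lower in members (interval 8.96 to 11.2), and was found in 38.0% and 75% of cells. Upk3a, a uroplakin and one of the ML genes of the rule, had 191 and 1696 counts (9.72-fold lower), with 87.4% of the member counts in 10 cells. Clca3a2, a chloride channel accessory protein, had 21 and 307 counts (16-fold lower), and Il33, an alarmin cytokine, 25 and 233 (10.2-fold lower). Fgb, the fibrinogen beta chain, was 4.89-fold lower, and Col8a1 (a collagen), Pir, Fxyd2 (a sodium pump regulator), Fam25c and Nupr1 (a stress-induced nuclear protein) lay between 4.21-fold and 6.93-fold lower. The angiogenin genes Ang4 and Ang5 had 5 and 60 counts and 4 and 48 counts, and as close relatives could share reads.

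**Figure D4:**
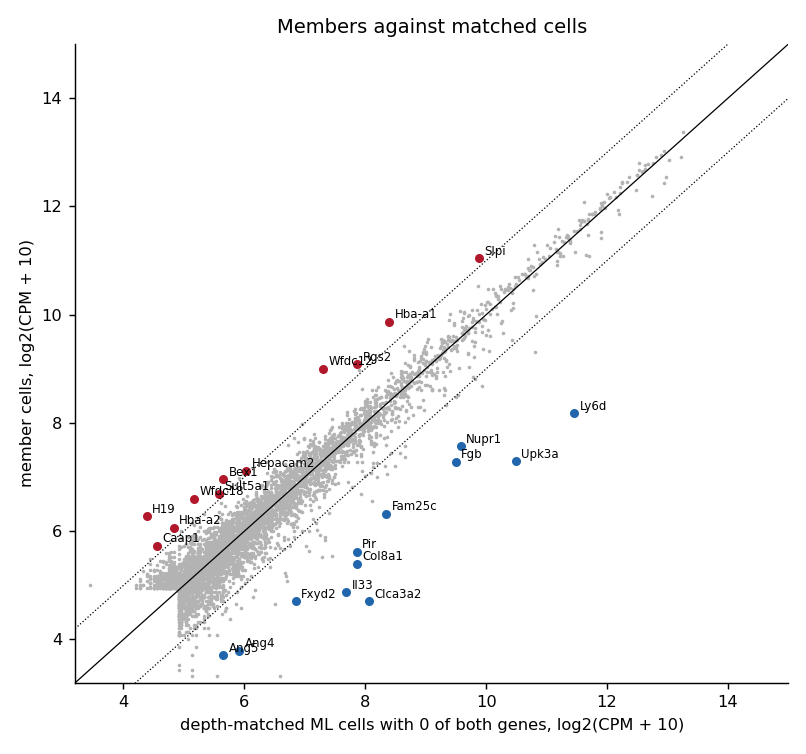
Summed expression of members (vertical axis) against depth-matched ML cells (horizontal axis), both as log2(CPM + 10), for the genes tested; the solid line marks equal values and the dotted lines a log2 difference of 1. Red points are named genes highest in members and blue points the 12 lowest, and the lower side holds the larger differences, such as Ly6d, Upk3a and Clca3a2.

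Since members lay mostly in clusters 1, 2 and 5, the comparison was repeated with matched cells from the same cluster, a choice made after the clusters were seen. In these 158 pairs, 6 of 4902 genes (0.122%) were higher by 1 or more on the log2(CPM + 10) scale and 25 (0.51%) lower. H19 (83 and 20 counts, 3.26-fold, interval 1.98 to 5.61) remained higher, as did Hba-a1 (1.86-fold), Rgs2 (1.99-fold) and Slpi (1.59-fold), at smaller folds. Areg was 0.962-fold (interval 0.911 to 1.02), so that its difference was not seen within clusters. Upk3a remained 13.2-fold lower, with 65 and 673 counts, and Il33 was lower with 14 and 77 counts, while Ly6d was 2.63-fold lower. For Clca3a2 (16 and 18 counts), Fxyd2, Ang4 and Ang5 the interval of the ratio included 1, and Nupr1 was lower by 0.39 on the log2(CPM + 10) scale. The pairs used all 117, 33 and 8 cells with 0 of both genes in clusters 1, 2 and 5, so that none of these was chosen by depth. Median counts of paired members and matched cells were 6152 and 4619 in cluster 1. They were 10031 and 10052 in cluster 2, and 9102.5 and 5896 in cluster 5. Depth was thus less well matched in clusters 1 and 5, which lacked deep cells without both genes.

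**Figure D5:**
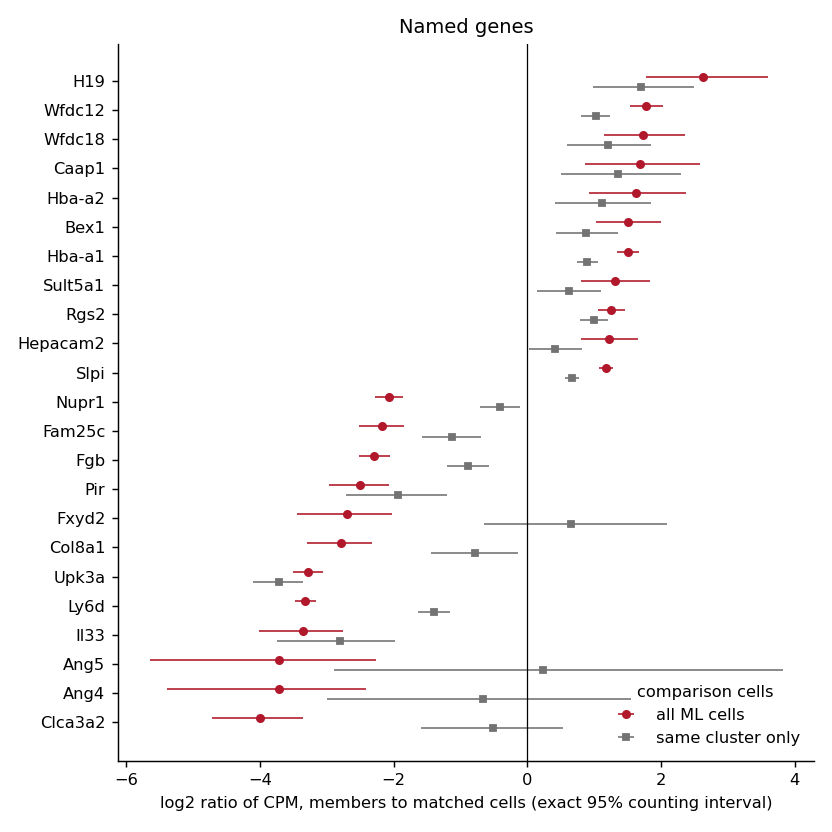
Log2 ratio of CPM in members to matched cells for the named genes, with exact 95% counting intervals, where red circles take matched cells from all ML cells and grey squares from the same cluster only. The ratios within clusters are nearer to 0 for most genes, and Upk3a is an exception.

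The genes of the pathways around the 2 transcripts were then examined by list. Over all 5013 genes tested, 19 were past the fold higher and 72 lower, and 2549 were above 0. The interval lay above 0 for 543 genes and below 0 for 630. At these shares, 0 genes past the fold in a short list is not a result about that list. For the hormone receptors and cofactors, 8 of 13 genes had enough counts, 0 were past the fold in either direction, and their median log2 difference was -0.31, against 0.01 for all genes. Pgr had 25 counts in members and 40 in matched cells, and was detected in 10.9% and 18.2% of cells (1.75-fold lower, interval 1.04 to 3.01), but Pgr within the same clusters differed by 0.05 on the log2 scale. Esr1, the estrogen receptor, had 28 and 27 counts, and the prolactin receptor Prlr (a gene of the rule), Gata3 and Foxa1 were 1.5-fold, 1.63-fold and 1.58-fold lower. Within the same clusters the list had 5 genes above and 3 below 0 (median 0.03), and the intervals of Gata3 (1.07-fold) and Foxa1 (0.821-fold) included 1. Prlr remained lower there, with 667 and 609 counts (0.861-fold, interval 0.770 to 0.962). Cited1, a cofactor and one of the ML genes of the rule, was near equal at 2542 and 2679 CPM. Detection of Pgr was low in both sets, and cells without a count of it cannot be taken to lack it.

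Among other secreted factors of hormone-sensing cells, 7 of 18 were measured and 0 were past the fold. Wnt4, a progesterone-induced Wnt ligand, had 91 and 78 counts (1.07-fold, interval 0.779 to 1.46), and Wnt5a 42 and 73 counts (1.90-fold lower, but 1.55-fold lower within the same clusters, where the interval of 0.947 to 2.56 included 1). Ptn, the growth factor pleiotrophin, was present in 100% of both sets, at 7706 and 9538 CPM.

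The RANKL receptor and decoy receptor were almost absent from the members. Tnfrsf11a, which encodes RANK, had 0 counts in members and 1 in matched cells, and stood at 11.2 CPM in LP cells and 15.3 CPM in basal cells of the library. Tnfrsf11b, which encodes the decoy osteoprotegerin, had 1 and 0 counts, against 27.8 CPM in basal cells. Of the 15 genes of the RANK and NF-kB list, 9 were tested and 0 were past the fold, with a median difference of -0.21. The sheddases Mmp14 (122 and 97 counts) and Adam10 (67 and 64) were both near equal, and the other 3 listed proteases were below the filter.

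The calcitonin receptor Calcr, the CGRP receptor Calcrl and the related peptide Calcb had 0 counts in both sets. Ramp1, a co-receptor that makes Calcrl a CGRP receptor, had 18 and 50 counts (3.04-fold lower, interval 1.74 to 5.54) and was the only 1 of 9 genes of this family above the filter. In the list of peptide processing genes, 2 of 13 passed the filter, namely Furin (27 and 17 counts) and Pam, which amidates peptides such as calcitonin and CGRP (22 and 46 counts, 2.29-fold lower, and 1.91-fold lower within the same clusters, where the interval of 0.973 to 3.84 included 1). Chga, Pcsk1 and Pcsk2, of endocrine granules, had 0 counts in both.

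Genes known to respond to progesterone or glucocorticoids differed in both directions. Fkbp5 (41 and 16 counts, 2.34-fold, interval 1.29 to 4.47) and Zbtb16 (64 and 31 counts, 1.89-fold, interval 1.21 to 3.0) were higher in members, and Errfi1, an inhibitor of EGF receptor signalling, was 2.24-fold lower (79 and 162 counts). Within the same clusters the intervals of Fkbp5 (1.46-fold, 0.838 to 2.61) and Zbtb16 (1.39-fold, 0.896 to 2.18) included 1, and Errfi1 was 2.11-fold lower. In this list 7 of 8 genes were measured and 1, Errfi1, was past the fold. Of the JAK-STAT5 genes, 6 of 10 were measured and 0 past the fold, with Socs2 at 1.46-fold and Stat5a at 1.41-fold, and within the same clusters the intervals of both included 1 (1.05-fold and 1.34-fold). With matched cells from all ML cells, Socs3 differed by -0.06 and Csn2 by -0.38 on the log2(CPM + 10) scale. Socs3 was higher within the same clusters, with 781 and 415 counts (1.48-fold, interval 1.31 to 1.67). Csn2 was lower there, with 12 and 38 counts (4.03-fold lower, interval 2.06 to 8.47), and is a leading gene of cluster 5, which gave 8 pairs.

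Of the cell cycle list, 9 of 10 genes were measured and 0 were past the fold, with a median of 0.14 and 3 intervals above 0 (Ube2c, Cdk1 and Rrm2). Ube2c had 261 and 122 counts (1.95-fold). Within the same clusters 4 of the 9 were above 0 and 5 below (median -0.16), and Ube2c was 1.60-fold higher while Tyms was 0.742-fold (interval 0.561 to 0.982). Cells with at least 3 of 10 cell cycle genes numbered 42 of 192 members (21.9%, interval 16.2% to 28.4%) and 28 of 192 matched cells (14.6%, interval 9.91% to 20.4%), intervals that overlap. The share was 35.4% in the 65 cells with both genes (interval 23.9% to 48.2%), whose median depth was 7491 counts. Of the G1 genes, 7 of 13 were measured, and the inhibitor Cdkn1a was the 1 past the fold, with 64 and 180 counts (3.08-fold lower, interval 2.30 to 4.16). All 10 immediate early genes were lower, with 0 past the fold and a median of -0.39. For 9 of them the interval lay below 0, against 630 of all 5013 genes tested. Within the same clusters this did not hold, as 6 of the 10 were higher and 4 lower (median 0.05). The intervals of Fos (1.18-fold, 1.13 to 1.23) and Jun (1.09-fold, 1.03 to 1.15) lay above 1. Those of Fosb (0.879-fold, 0.782 to 0.988), Junb (0.909-fold, 0.865 to 0.956) and Jund (0.829-fold, 0.754 to 0.913) lay below 1. In the luminal keratin and adhesion list, 0 of 9 were past the fold (median -0.45) and 5 intervals lay below 0, with Cldn4 at 1.92-fold lower and Epcam near equal. Within the same clusters 7 of the 9 were below 0 and 2 above (median -0.18). The interval lay below 1 for Krt8 (0.866-fold), Krt18 (0.811-fold), Krt19 (0.784-fold), Krt7 (0.883-fold) and Cldn4 (0.634-fold), and above 1 for Cldn3 (1.13-fold). The median share of mitochondrial counts was 0.773% in members and 0.707% in matched cells.

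The labelled class was checked against marker genes. The ML genes Cited1, Prlr, Stc2 and Plac8 were detected in 99.5%, 96.9%, 88.0% and 88.0% of members, Tspan1 in 45.8% and Upk3a in 15.1% (34.4% of matched cells). These genes belong to the rule that chose the class, and for 5 of the 6 the interval of the ratio to matched cells lay below 1. Plac8 went the other way, with 885 and 464 counts (680 and 390 CPM) and detection in 88.0% and 59.9% of cells. The 5 LP genes summed to 58 counts in members and 89 in matched cells, and the 7 basal genes to 88 and 72. The 6 measured T cell genes were at 0 in both sets, the 8 myeloid genes had 4 and 2 counts, and the 5 endothelial genes 1 and 2. Of the fibroblast genes, Dcn had 1330 and 797 counts and was found in 53.6% and 33.9% of cells, while Col1a1, Col1a2, Col3a1 and Lum were at 0 in members and together had 75 counts in a single matched cell. Scrublet called 28 of 2439 cells doublets (1.15%), and 0 of the ML cells.

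Members differed among themselves in several of these genes. Upk3a stood at 233 CPM in members with Tnfsf11 only, 202 CPM with Calca only and 36.0 CPM with both. Slpi stood at 1603, 1479 and 3012 CPM in the same order, H19 at 28.4, 60.0 and 101.9 CPM, and Hba-a1 at 639, 823 and 1221 CPM. Wfdc12 was at 392, 238 and 819 CPM. Of these 3 subsets, cells with both genes had the highest median depth and the highest share of cycling cells, and the part of depth and cycling in these values was not tested.

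The same rule gave 29 members in the puberty library, all through Tnfsf11, and none in estrus. In puberty, with 29 cells against 29, 562 of 5538 genes (10.1%) were higher by 1 or more on the log2(CPM + 10) scale and 784 (14.2%) lower, so that single genes were poorly measured. All 12 of the genes lower in diestrus members were also lower in puberty, 10 of them past the fold, among them Upk3a (1 and 221 counts) and Fgb (62 and 638 counts), where 52.4% of all genes tested were at or below 0. Of the 12 genes higher in diestrus, 8 were tested and 5 were higher, where 47.6% of all genes tested were above 0. Hba-a1 (119 and 18 counts), Bex1 (36 and 6) and Sult5a1 (23 and 0) were past the fold, the last from 6.90% of the members. Slpi (34 and 519 counts) and Rgs2 (17 and 66) were lower in the puberty members. Wfdc12 had 139 and 399 counts, but those of the matched cells lay in 1 cell, and 17.2% of members against 3.45% of matched cells had a count of it.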

How the data were processed

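The deposited counts are molecules per gene and cell barcode, which the authors made with Cell Ranger 2.0 on mm10 (per the submitters' processing notes) without normalization; the barcodes were used as deposited. The diestrus library held 11868593 counts, the estrus library 10962454, and the 2 puberty tables, summed over 5387 shared barcodes, 41970387, in which some molecules may be counted in both tables. Other tables shared 13 to 24 barcodes. The members and gene lists were chosen with earlier results of these data known.

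Python 3.11.15, numpy 2.4.6, scipy 1.17.1 and scanpy 1.11.5 were used (Scrublet with an expected rate of 0.06; Leiden clustering at resolution 0.5 on 2000 variable genes and 20 components). TMM factors came from edgeR 4.0.16 in R 4.3.3. Shares have Clopper-Pearson intervals, ratios conditional binomial intervals, co-detection Poisson intervals, and a count of 0 is given with the share that 3 counts allow. Besides listed genes, the 12 highest and 12 lowest log2 ratios were named among genes with 20 CPM in a set and detection in 10% of its cells, with the same direction when all other ML cells were weighted to the members' depth, leaving out Tnfsf11, Calca, mitochondrial genes, ribosomal protein genes and Gm models, and the 5 highest co-detection ratios for each gene. Alternatives changed the ML and member thresholds, doublets, cycling cells, thinning, matching, scaling, pseudocount, filter, strata and resolution. The statistics were tested on simulated data. A gene that met the naming rule is not reported here.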

Additional observations from a re-analysis of the deposited data

How the results depend on the processing

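Each stage had 1 library, so no library could be left out in turn. Samples could not be paired because each stage has 1 library. Members and matched cells were paired only to choose the matched cells. Their counts were summed over each set, so the intervals do not use the pairs. The member share of 30.5% was 21.9% when at least 2 counts were required and 20.5% after thinning to 2000 counts. The co-detection ratio of 1.56 was 2.50 after thinning and 2.50 without depth strata. The genes past the fold, 19 higher and 72 lower, numbered 36 and 122 without cycling cells, 304 and 509 after thinning, and 58 and 177 with a pseudocount of 1 CPM. Without matching 110 were lower. In choices made after the data were seen, they numbered 6 and 25 within the same cluster, and 48 were higher in pairs within 10% of each other's total. The 3 list genes past the fold numbered 15 after thinning, 1 when weighted to depth, 5 without matching, 6 with the smaller pseudocount and 6 in pairs within 10%. Thinning left fewer counts and cells, and the smaller pseudocount damps low counts less. The cause of the other shifts was not tested. Within the same cluster, Fxyd2 (0.34) and Ang5 (0.0454) reversed on the log2 scale. For the named genes, 228 values under the planned settings kept their direction and stayed within the counting interval, and 36 moved beyond it. Across the alternatives the median of all genes stayed between -0.0521, after thinning, and 0.0479, after scaling by the median of ratios, on the log2 scale. Scarce transcripts and the single library per stage limit these values.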
